A study of Mus musculus with 8 samples.

Results

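The 9 genes described here belong to zinc and metal handling: the metallothioneins Mt1, Mt2 and Mt3, their transcriptional activator Mtf1, the zinc exporters Slc30a1, Slc30a2 and Slc30a4, and the zinc importers Slc39a10 and Slc39a14. They were found by symbol, 9 of 9, among the 48328 genes of an RNA-seq table made from the tibialis anterior, the shin muscle that lifts the foot, of C57BL/6J mice aged 24 months. Mt1 and Mt2 were put in this set because they were higher in the mutant muscle, so their genotype difference is described without a test. The other 7 stand in it by their role. There were 4 libraries of K320E-skm muscle, whose skeletal muscle makes Twinkle, the mitochondrial DNA helicase, with a dominant mutation, and 4 libraries of wild-type muscle. No treatment is labelled in either genotype, each genotype holds 2 libraries labelled male and 2 labelled female, and the promoter or Cre that directs the mutant protein to muscle is not given in the sources used here. The study concerns muscle loss in old age and alterations of mitochondrial DNA. RNA came from a piece of the lower part of each muscle, so every value is over all its cells.

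Metallothioneins are very small proteins rich in cysteine that bind zinc, copper and cadmium in the cytosol. Zinc that enters the nucleus loads the zinc finger protein MTF1, which binds metal response elements in the promoters of the metallothionein genes and of the exporter gene Slc30a1, while glucocorticoids, cytokines and oxidants also raise metallothionein transcription. SLC30 proteins (ZnT) move zinc out of the cytosol, to the outside or into vesicles, and SLC39 proteins (ZIP) move it into the cytosol. In skeletal muscle, metallothionein transcripts are known to be induced during wasting.

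The coding sequences are shown because the cysteine codons are what makes these genes metal binders, and because their likeness bears on whether reads could be shared between them. All 3 lie in a row on the plus strand of chromosome 8 (GRCm38). Capitals mark in-frame cysteine codons (TGC or TGT) in the first-numbered GENCODE M21 transcript of each gene.
Mt1 coding sequence: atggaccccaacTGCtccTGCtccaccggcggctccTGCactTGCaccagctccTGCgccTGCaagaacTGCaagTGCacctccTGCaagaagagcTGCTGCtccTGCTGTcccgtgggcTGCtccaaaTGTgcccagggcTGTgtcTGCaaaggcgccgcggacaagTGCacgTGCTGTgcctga
Mt2 coding sequence: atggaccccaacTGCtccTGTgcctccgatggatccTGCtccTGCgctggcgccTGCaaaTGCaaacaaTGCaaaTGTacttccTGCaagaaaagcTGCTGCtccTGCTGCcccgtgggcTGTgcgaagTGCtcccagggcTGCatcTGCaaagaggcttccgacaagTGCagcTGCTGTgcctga
Mt3 coding sequence: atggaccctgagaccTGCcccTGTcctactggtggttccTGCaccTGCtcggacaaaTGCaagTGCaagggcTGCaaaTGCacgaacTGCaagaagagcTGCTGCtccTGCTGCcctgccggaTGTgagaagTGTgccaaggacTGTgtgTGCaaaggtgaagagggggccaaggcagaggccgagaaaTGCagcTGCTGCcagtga
Mt1 and Mt2 each have 61 codons before the stop, of which 20 code for cysteine, and Mt3, the form known from brain, has 68 codons with the same number of cysteines. Without gaps, 148 of the 186 coding bases of Mt1 and Mt2 are identical (79.6%), and the longest run that is identical anywhere in their transcripts is 20 bases. The longest run shared by Mt1 and Mt3 is 27 bases, and by Mt2 and Mt3 it is 20 bases.

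Promoter letters of Mt1 and Mt2 are shown because MTF1 binds metal response elements in metallothionein promoters. They are the 250 bases before the RefSeq start (GRCm38.p6), on the plus strand at chr8:94178839-94179088 for Mt1 and chr8:94172368-94172617 for Mt2. Capitals mark matches to the 7-letter core of the metal response element, TGCACNC or TGCGCNC, on either strand.
Mt1 promoter: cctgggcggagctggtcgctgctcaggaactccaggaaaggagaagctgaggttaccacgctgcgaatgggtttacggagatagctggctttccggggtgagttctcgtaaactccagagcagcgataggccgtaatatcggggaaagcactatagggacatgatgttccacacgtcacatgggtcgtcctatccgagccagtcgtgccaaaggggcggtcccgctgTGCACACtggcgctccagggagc
Mt2 promoter: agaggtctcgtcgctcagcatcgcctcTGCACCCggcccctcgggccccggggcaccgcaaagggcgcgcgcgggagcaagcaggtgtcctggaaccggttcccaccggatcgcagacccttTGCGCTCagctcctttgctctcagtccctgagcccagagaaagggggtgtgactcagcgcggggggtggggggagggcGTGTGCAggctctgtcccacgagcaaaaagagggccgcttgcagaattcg
In the window that also takes in the 50 bases after that start, Mt1 held 3 matches, at positions -23 to -17 (TGCACAC), 3 to 9 (TGCACTC) and 21 to 27 (TGCGCTC), counted from the start as 1. Mt2 held 4 matches, beginning at -223, -128, -50 and 5. At least 1 match was found in 25.7% of 32817 mouse promoter windows of the same length, at least 3 in 1.97% and at least 4 in 0.518%. Mt3 held 1 match, Slc30a1 2, Slc30a2 2 and Slc30a4 3, while Mtf1 and both windows of Slc39a10 held 0. The Slc39a10 windows, at 46925727 to 46926026 and 46853569 to 46853868, do not cover the GENCODE start of that gene at 46892852. Nor do the windows of Mtf1 (124802299 to 124802598) and Slc30a2 (134343216 to 134343515) cover their GENCODE starts, at 124802104 and 134343181. The bases at these starts were not scanned. In these windows, an antioxidant response element core (TGACNNNGC, either strand) was found once in Mt2, at -79 to -71, and once in Slc30a1. The match in Mt2 overlaps no metal response element. Of all windows, 12.4% held this core. The Mt1 window held 0, and bases downstream of it were not scanned. A promoter window was at hand for 8 of the 9 members. GENCODE M21 also holds transcripts of Mt1 that start at 94179211 and 94179241, downstream of its window, which ends at 94179138. The bases between were not scanned, so the counts for Mt1 cover this window and not all of its promoter sequence. A match is a description of these letters and not of a site in use.

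Across the libraries, FPKM summed to between 731824 and 858029, and 10167 to 11581 genes reached 1 FPKM. The table holds no counts, but the lowest values of long genes fall on steps of 1 fragment, so that 1 FPKM stands for an estimated 36.7 to 47.9 fragments per kilobase of transcript, depending on the library. Twnk, which encodes Twinkle, was at 3.82 to 5.06 FPKM in K320E-skm and at 2.16 to 2.70 FPKM in wild-type libraries, so all 8 libraries stood with their genotype label. K320E-skm 4, labelled male, held Xist at 10.2 FPKM and Ddx3y at 0.0117 FPKM, against its sex label. Without this library the log2 fold changes of the members tested were 0.39 for Mt3, −0.09 for Mtf1, 0.12 for Slc30a1, −0.09 for Slc30a4, 0.05 for Slc39a10 and 0.44 for Slc39a14. The 2 mitochondrial ribosomal RNAs took 41.5% to 46.9% of the FPKM sum in K320E-skm and 31.2% to 37.5% in wild-type libraries. The median log2 fold change over all 10521 tested genes was −0.14 as deposited, with 20.5% of genes above 0, and 0.00 after median-ratio rescaling.

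Mt1, which encodes metallothionein 1 (ENSMUSG00000031765, protein-coding, chromosome 8, 94179082 to 94180327, GRCm38), was measured at 83.4, 78.1, 75.9 and 24.0 FPKM (K320E-skm 1 to 4), against 22.3, 35.3, 11.3 and 19.6 FPKM (wild-type 1 to 4). K320E-skm 1 to 3 lay close together and above all wild-type libraries, and K320E-skm 4 lay among them. The means were 65.3 ± 27.7 and 22.1 ± 9.94 FPKM in K320E-skm and wild-type muscle (SD, n = 4 each), 2.95 times apart. The log2 fold change of FPKM + 1 was 1.48 (SE 0.42), or 1.62 relative to the median gene.

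Mt2, which encodes metallothionein 2 (ENSMUSG00000031762, chromosome 8, 94172664 to 94173568), was measured at 60.4, 46.3, 48.1 and 15.7 FPKM (K320E-skm 1 to 4), against 9.62, 18.7, 5.56 and 9.52 FPKM (wild-type 1 to 4). The order of the libraries was much like that of Mt1, with K320E-skm 4 again below wild-type 2. The means were 42.6 ± 19.0 and 10.8 ± 5.56 FPKM in K320E-skm and wild-type muscle (SD, n = 4 each), 3.93 times apart, and the log2 fold change was 1.84 (SE 0.42). Without K320E-skm 4 the log2 fold changes were 1.90 for Mt1 and 2.25 for Mt2. Among the 10521 tested genes, 9 had a larger log2 fold change than Mt2 and 12 a larger one than Mt1, given as a description since the same difference chose both genes.

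**Figure D1:**
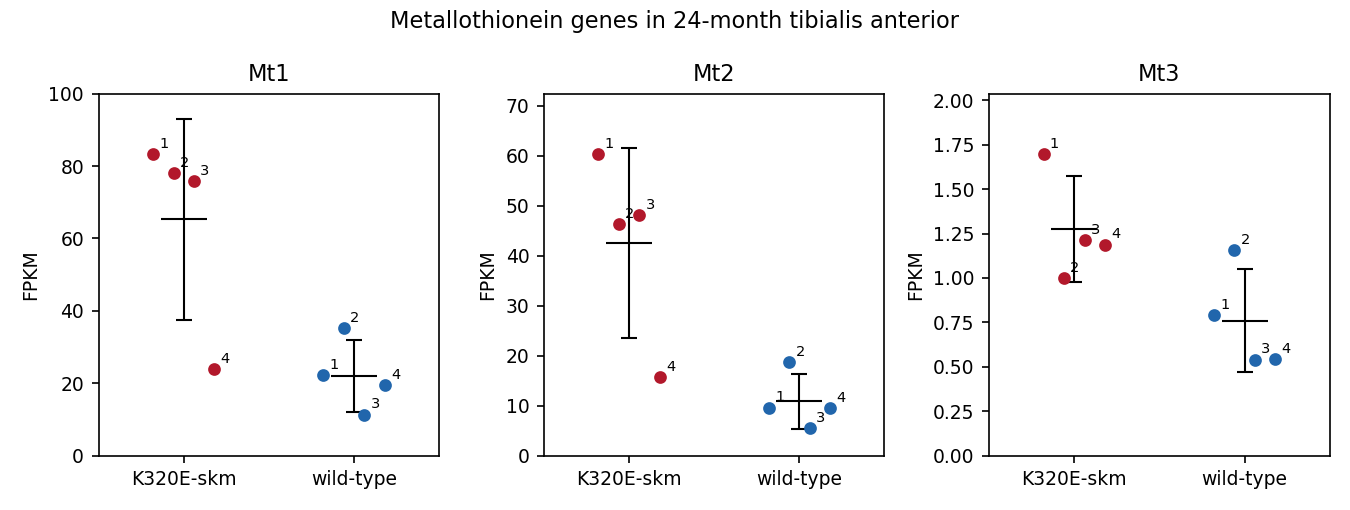
FPKM of Mt1, Mt2 and Mt3 in each library (points, with the replicate number), by genotype, with the mean and SD (n = 4 each) in black. For Mt1, K320E-skm 1 to 3 lie at 75.9 to 83.4 FPKM and K320E-skm 4 at 24.0 FPKM, within the wild-type range of 11.3 to 35.3 FPKM.

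The balance between Mt1 and Mt2 also differed, in a measure that does not depend on how a library is scaled. The ratio of Mt2 to Mt1 FPKM was 0.724, 0.593, 0.634 and 0.653 in K320E-skm 1 to 4 and 0.431, 0.530, 0.491 and 0.487 in wild-type 1 to 4. All 4 K320E-skm libraries had the higher ratio, K320E-skm 4 included, although its levels lay among those of wild-type libraries. The means were 0.651 ± 0.0547 for K320E-skm and 0.485 ± 0.0405 for wild-type muscle (SD, n = 4 each). The difference of the log2 ratio was 0.43, and 0.42 without K320E-skm 4. No test is given, since both genes were chosen by the same comparison. In GENCODE M21, 749 of the 905 bases of Mt2 lie opposite the antisense gene Gm45774, which is not analysed here, and as the strand setting is not given, the FPKM of Mt2 could hold its reads; Mt1 has no such partner in the annotation.

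The level of Mt1 and Mt2 together was 144, 124, 124 and 39.6 FPKM (K320E-skm 1 to 4), against 31.9, 54.0, 16.9 and 29.1 FPKM (wild-type 1 to 4). Macrophages also make metallothioneins, and their marker transcripts varied between libraries. The summed level of 5 macrophage markers was 38.8, 35.6, 28.2 and 14.0 FPKM (K320E-skm 1 to 4), against 42.5, 28.1, 12.3 and 12.6 FPKM (wild-type 1 to 4). K320E-skm 4 was the lowest of its genotype in both measures. Wild-type 1 had the highest marker sum of all libraries as deposited, and held Mt1 and Mt2 together at 31.9 FPKM. Its size factor in the median-ratio rescaling was also the largest, 1.28. The marker sums were not rescaled, so this order may depend on the scaling. None of the 5 markers (Cd68, Adgre1, Csf1r, Mrc1 and C1qa) was at 0 in any library, and none passed the threshold. Cd68, a lysosomal marker of macrophages, was measured at 6.88, 3.76, 5.01 and 1.91 FPKM (K320E-skm 1 to 4), against 3.39, 3.52, 1.26 and 0.771 FPKM (wild-type 1 to 4). It had the largest log2 fold change of the 5, 0.76, in a range that began at 0.05 with a median of 0.21. Csf1r, the receptor of a macrophage growth factor, was at 2.49 to 6.47 FPKM in K320E-skm and 2.53 to 7.26 FPKM in wild-type libraries, and Mrc1, the mannose receptor, at 2.40 to 6.58 and 2.27 to 6.75 FPKM. The part of these markers in the metallothionein difference was not tested, and in whole muscle a change in cell number and a change in RNA per cell cannot be told apart.

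**Figure D2:**
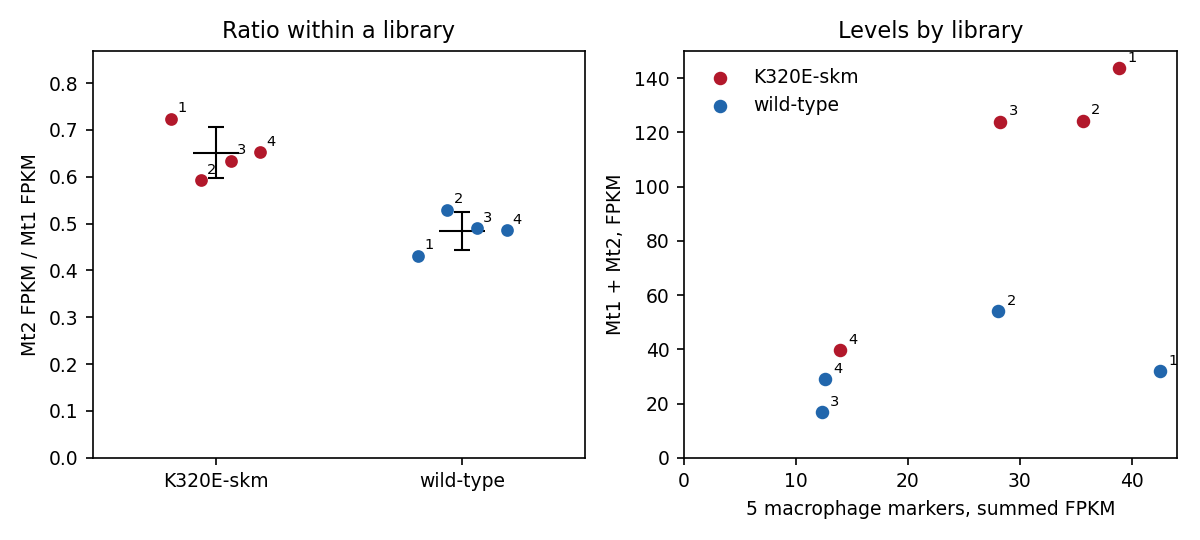
Left, the ratio of Mt2 to Mt1 FPKM in each library by genotype, with mean and SD (n = 4 each): 0.593 to 0.724 in K320E-skm and 0.431 to 0.530 in wild-type libraries, without overlap. Right, the summed FPKM of Mt1 and Mt2 against the summed FPKM of 5 macrophage markers, 1 point per library, with the replicate number.

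Other cell types of muscle were checked by their markers in the same way. The summed level of 5 fibre genes (Ckm, Mb, Tnnt3, Myh1 and Myh2; the sixth listed, Acta1, is not analysed here) was 15787 to 18700 FPKM in K320E-skm and 18469 to 20657 FPKM in wild-type libraries, so the tissue label held in all 8. Of these, Tnnt3, fast troponin T, was lower without overlap, at 6848 to 8307 FPKM in K320E-skm and 9410 to 10397 FPKM in wild-type libraries (limma adjusted p = 0.382). Endothelial markers summed to 33.9 to 44.7 and 35.5 to 50.4 FPKM, fibroblast markers to 168 to 279 and 171 to 467 FPKM, and adipocyte markers to 6.10 to 11.2 and 2.67 to 43.0 FPKM in K320E-skm and wild-type libraries. Schwann cell markers summed to 10.3 to 13.3 and 11.8 to 22.5 FPKM, and erythroid markers to 133 to 278 and 222 to 370 FPKM, in K320E-skm and wild-type libraries. Satellite cell markers summed to 0.267 to 0.627 FPKM in K320E-skm and 0.324 to 0.949 FPKM in wild-type libraries. No marker of these lists was at 0 in all libraries. The part of these cells in the results was not tested.

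Mt3, the third metallothionein of the cluster (ENSMUSG00000031760, 94152607 to 94154146), is known as a growth inhibitory factor of neurons and was barely expressed. It was measured at 1.70, 1.00, 1.21 and 1.19 FPKM (K320E-skm 1 to 4), against 0.791, 1.16, 0.540 and 0.545 FPKM (wild-type 1 to 4). Of the K320E-skm libraries, 3 exceeded every wild-type library, and wild-type 2, the wild-type library with the most Mt1 and Mt2, overlapped them. Mt3 came through the filter on the 4 K320E-skm libraries and 1 wild-type library, that is through the genotype where it is higher, so its fitted difference is given as a description. The log2 fold change was 0.38 (SE 0.14), and it did not pass (limma adjusted p = 0.299; exact permutation p = 0.0571, n = 4 each). At transcript lengths of 440 to 536 bases, these values stand for only about 10.3 to 39.0 fragments per library, which limits their precision.

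Of the other genes within 100 kb of Mt1, Mt4, Bbs2 and Nup93 are in the table, and Gm45774, Gm39228, Rpl10-ps5 and Gm45804 are not analysed here. Mt4, whose product belongs to stratified epithelia, was listed at 0 in all 8 libraries. Bbs2, a component of the cilium-associated BBSome, which lies on the far side of Mt4, had a mean of 1.13 ± 0.182 FPKM in K320E-skm, against 1.30 ± 0.213 FPKM in wild-type muscle (limma adjusted p = 0.641). Nup93, which encodes a nuclear pore protein and begins 35.5 kb beyond the start of Mt1, had a mean of 1.63 ± 0.285 FPKM in K320E-skm, against 1.63 ± 0.372 FPKM in wild-type muscle (limma adjusted p = 0.984).

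**Figure D3:**
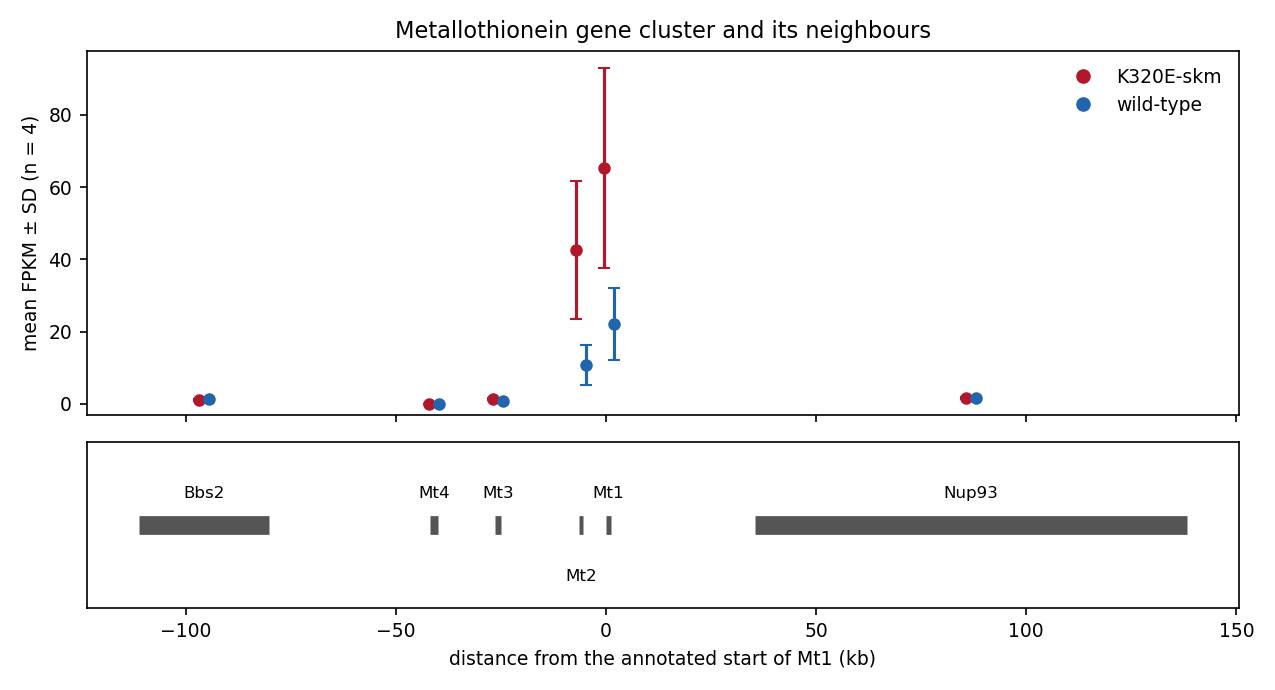
Genes within 100 kb of Mt1 that are in the table, drawn to scale by distance from the annotated start of Mt1 in kilobases (bottom), with their mean FPKM and SD (n = 4 each) by genotype (top). Mt2 and Mt1 stand at 42.6 and 65.3 FPKM in K320E-skm and 10.8 and 22.1 FPKM in wild-type muscle, while the genes on both sides stay below 2 FPKM.

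Mtf1, the zinc sensor and activator of the metallothionein genes (ENSMUSG00000028890, chromosome 4, 124802104 to 124849800), showed no difference past the threshold. The libraries measured 1.35, 1.50, 1.45 and 1.59 FPKM (K320E-skm 1 to 4), against 1.94, 1.58, 1.57 and 1.31 FPKM (wild-type 1 to 4). The groups overlapped throughout, and the log2 fold change was −0.07 (SE 0.11, limma adjusted p = 0.772), turning to 0.05 after median-ratio rescaling. RNA levels do not show how much of the protein was active.

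Slc39a14 encodes ZIP14, an importer of zinc that also carries non-transferrin iron and manganese and is induced by inflammation (ENSMUSG00000022094, chromosome 14, 70303469 to 70351425). It was measured at 2.55, 4.84, 2.63 and 2.49 FPKM (K320E-skm 1 to 4), against 2.06, 2.41, 2.43 and 1.65 FPKM (wild-type 1 to 4). Each of the 4 K320E-skm libraries exceeded the highest wild-type library, by a small margin in 3 of them and by far in K320E-skm 2. Over all tested genes, 0.333% were higher in K320E-skm muscle in this way and 9.59% were lower, and after rescaling, where Slc39a14 still did not overlap, the shares were 2.91% and 2.98%. The log2 fold change was 0.37 (SE 0.18) and did not pass (limma adjusted p = 0.362; exact permutation p = 0.0286, the smallest possible, n = 4 each). Without K320E-skm 2 it was 0.19, and without K320E-skm 4 it was 0.44.

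Slc39a10 encodes ZIP10, a zinc importer of the plasma membrane that MTF1 represses in mouse cells (ENSMUSG00000025986, chromosome 1, 46807544 to 46892852). The libraries measured 1.47, 1.95, 2.19 and 1.90 FPKM (K320E-skm 1 to 4), against 2.48, 1.89, 1.29 and 1.48 FPKM (wild-type 1 to 4). The wild-type libraries held both the highest and the lowest value, and the log2 fold change was 0.06 (SE 0.15, limma adjusted p = 0.858).

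Among the exporters, Slc30a1, which encodes ZnT1 of the plasma membrane, the exporter that MTF1 induces when zinc rises (ENSMUSG00000037434, chromosome 1, 191906767 to 191913247), was measured at 1.60, 1.05, 1.41 and 1.01 FPKM (K320E-skm 1 to 4), against 1.48, 0.917, 1.19 and 1.07 FPKM (wild-type 1 to 4). The groups overlapped, with K320E-skm 1 highest and wild-type 2 lowest. The log2 fold change was 0.06 (SE 0.13, limma adjusted p = 0.820; exact permutation p = 0.629, n = 4 each).

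Slc30a4, which encodes ZnT4 of intracellular vesicles (ENSMUSG00000005802, chromosome 2, 122681233 to 122702663), was measured at 3.93, 3.99, 3.16 and 3.34 FPKM (K320E-skm 1 to 4), against 4.84, 3.73, 3.62 and 3.82 FPKM (wild-type 1 to 4). K320E-skm 3 and 4 lay below all wild-type libraries and K320E-skm 1 and 2 among them. The log2 fold change was −0.12 (SE 0.12, limma adjusted p = 0.640), and it was 0.03 after rescaling.

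Slc30a2, which encodes ZnT2, a vesicular exporter best known from the lactating mammary gland (ENSMUSG00000028836, chromosome 4, 134343181 to 134354484), reached 1 FPKM in 0 libraries and was the only member below the expression filter. It was measured at 0.676, 0.195, 0.167 and 0.142 FPKM (K320E-skm 1 to 4), against 0.742, 0.0678, 0.816 and 0.0683 FPKM (wild-type 1 to 4). The genotypes overlapped (exact permutation p = 0.771, n = 4 each), but the libraries fell into a high and a low set. The 3 high ones were the 3 libraries with transcripts of the Y chromosome, and the 5 low ones were those without, K320E-skm 4 among them. By label, Slc30a2 averaged 0.594 ± 0.307 FPKM in male and 0.125 ± 0.0663 FPKM in female libraries (exact permutation p = 0.0857, n = 4 each). Without K320E-skm 4, the male mean was 0.744 ± 0.0701 FPKM (n = 3), with the female libraries at 0.0678 to 0.195 FPKM (exact permutation p = 0.0571, the smallest that 3 against 4 allows). This comparison was chosen after its values were seen.

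**Figure D4:**
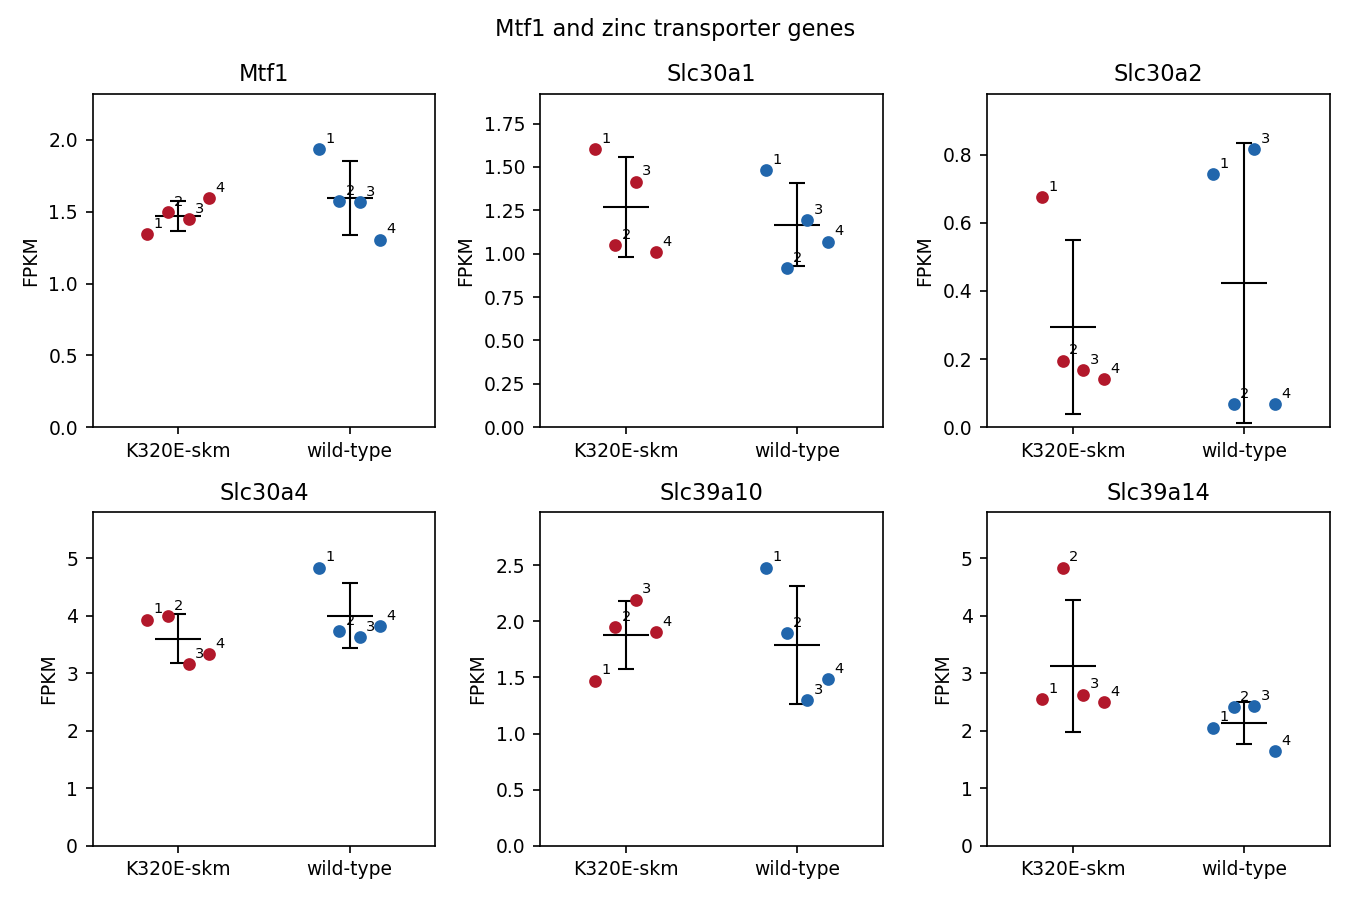
FPKM of Mtf1 and of 5 zinc transporter genes in each library (points, with the replicate number), by genotype, with mean and SD (n = 4 each) in black. Slc39a14 is the 1 gene here whose K320E-skm libraries all lie above the wild-type ones, and Slc30a2 is high in K320E-skm 1, wild-type 1 and wild-type 3.

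In all, 0 of the 6 members that were tested and in the fit passed the limma threshold, in a comparison where 0.019% of all tested genes did (0.0095% higher and 0.0095% lower). Of these, Mt3 was tested only through the genotype where it is higher. Slc39a14 was the 1 of the 6 that did not overlap between the genotypes, which 9.92% of all tested genes did not in either direction. By level, the order of mean FPKM over the 8 libraries was Mt1 at 43.7, Mt2 at 26.7, Slc30a4 at 3.80, Slc39a14 at 2.63, Slc39a10 at 1.83, Mtf1 at 1.53, Slc30a1 at 1.22, Mt3 at 1.02 and Slc30a2 at 0.359. Mt1 was above Mt2 in each library. The order pools the genotypes: Mt3 and Slc30a1 had the same mean in K320E-skm muscle, 1.27 FPKM each, but 0.758 and 1.17 FPKM in wild-type muscle. Each gene overlapped in range with the next in this order, Mt2 and Slc30a4 excepted.

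**Figure D5:**
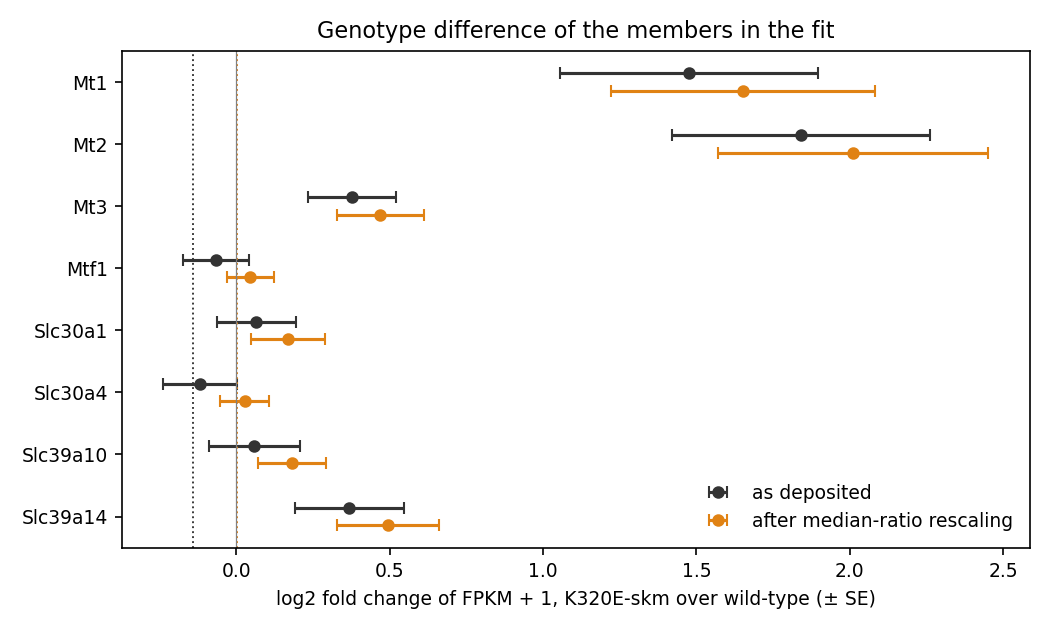
log2 fold change of FPKM + 1 (K320E-skm over wild-type) with its SE for the 8 members in the fit, as deposited and after median-ratio rescaling; dotted lines mark the median of all tested genes under each. Mt1 and Mt2 stand at 1.48 and 1.84 as deposited, and Mtf1 and Slc30a4 lie on either side of 0 depending on the scaling.

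The remaining zinc transporters were counted as 2 lists. Of 8 other exporter genes, 4 were tested, 0 passed and 0 did not overlap, beside 9.92% of all tested genes without overlap. Their median log2 fold change was −0.10, beside −0.14 for all tested genes, and 0.02 after rescaling. Slc30a9, a mitochondrial zinc transporter and the most abundant of them, had a mean of 19.0 ± 3.52 FPKM in K320E-skm, against 24.1 ± 1.77 FPKM in wild-type muscle, which makes a log2 fold change of −0.34 (SE 0.14, limma adjusted p = 0.322) and of −0.17 after rescaling. Slc30a5, which supplies zinc to the secretory pathway, averaged 2.69 ± 0.327 and 2.75 ± 0.377 FPKM, and Slc30a7, of the Golgi, 1.47 ± 0.614 and 1.48 ± 0.881 FPKM, in K320E-skm and wild-type muscle (n = 4 each). The tissue-restricted Slc30a3, Slc30a8 and Slc30a10 did not exceed 0.0275 FPKM in any library.

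Of 12 other importer genes, 4 were tested, 0 passed, and 1 was lower without overlap, as were 9.59% of all tested genes. Their log2 fold changes had a median of −0.18 as deposited and −0.03 after rescaling. The gene without overlap was Slc39a1, an importer of the plasma membrane found in most tissues. The libraries measured 7.81, 7.75, 7.10 and 7.92 FPKM (K320E-skm 1 to 4), against 12.3, 8.75, 8.16 and 8.44 FPKM (wild-type 1 to 4), which makes a log2 fold change of −0.25 (SE 0.13, limma adjusted p = 0.402) and of −0.09 after rescaling. Slc39a7, which releases zinc from the endoplasmic reticulum, averaged 10.1 ± 1.68 and 10.2 ± 2.16 FPKM in K320E-skm and wild-type muscle. Slc39a13, an importer needed in connective tissue, averaged 5.55 ± 0.531 and 6.82 ± 1.05 FPKM in K320E-skm and wild-type muscle, which is −0.25 on the log2 scale (limma adjusted p = 0.376).

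Other genes reported to respond to metals or MTF1 are Gclc, Selenoh, Csrp1, Ndrg1 and Pgf. Of these 5, 4 were tested, 0 passed, and 0 lay above 0 as deposited, beside 20.5% of all tested genes above 0. Their median log2 fold change was −0.24 as deposited, beside −0.14 for all tested genes, and −0.10 after rescaling. Selenoh, a selenoprotein of the nucleolus, averaged 13.1 ± 1.42 and 18.5 ± 8.36 FPKM, Csrp1, a LIM protein, 9.42 ± 1.13 and 10.6 ± 2.80 FPKM, and Ndrg1, a stress-induced gene, 4.74 ± 1.22 and 6.31 ± 2.17 FPKM, in K320E-skm and wild-type muscle (n = 4 each).

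Metallothioneins are also induced by glucocorticoids, so genes raised by these hormones were counted. Of 10 such genes, all tested, 0 passed and 1 was higher without overlap, as were 0.333% of all tested genes as deposited and 2.91% after rescaling. An unadjusted limma p under 0.05 was found for 3 of the 10 and for 14.7% of all tested genes. Among the tested genes of the other pathway lists, it was found for 2 of 7 STAT3 genes, 1 of 7 NRF2 genes and 1 of 4 exporters, and for 0 in the rest. Their log2 fold changes had a median of 0.10 as deposited, with a range of −0.26 to 1.20, and 0.28 after rescaling. The gene without overlap was Fkbp5, a co-chaperone of the glucocorticoid receptor. It was measured at 9.30, 10.9, 12.8 and 7.88 FPKM (K320E-skm 1 to 4), against 6.28, 6.38, 5.79 and 5.12 FPKM (wild-type 1 to 4), which makes a log2 fold change of 0.69 (SE 0.15, limma adjusted p = 0.271; exact permutation p = 0.0286, n = 4 each) and of 0.79 without K320E-skm 4. As for Mt1 and Mt2, K320E-skm 4 was the lowest of its genotype. This was not particular to Fkbp5 or to this list: it also held for Tsc22d3, and for Srxn1, Nqo1, Txnrd1 and Stat3 described below. It did not hold for Klf9, Cebpb or Junb, nor for Sgk1, which was highest of its genotype in K320E-skm 4. The part of glucocorticoids in the metallothionein levels was not tested. Of the most abundant members, Tsc22d3 averaged 103 ± 12.7 and 96.8 ± 17.8 FPKM, Sgk1 64.3 ± 8.03 and 76.3 ± 8.77 FPKM, and Klf9 31.8 ± 2.46 and 32.1 ± 3.23 FPKM, in K320E-skm and wild-type muscle.

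Of 8 oxidant-response targets of NRF2, 7 were tested, 0 passed and 0 did not overlap, beside 9.92% of all tested genes without overlap. In so short a list 0 is not a result about these genes. Their log2 fold changes had a median of 0.09 as deposited and 0.25 after rescaling. Srxn1, which repairs peroxiredoxins, averaged 10.8 ± 4.31 and 7.16 ± 1.40 FPKM, Nqo1, a quinone reductase, 7.85 ± 1.11 and 7.42 ± 1.69 FPKM, and Txnrd1, cytosolic thioredoxin reductase, 184 ± 111 and 217 ± 81.9 FPKM, in K320E-skm and wild-type muscle (n = 4 each). Of 10 genes responsive to cytokines through STAT3, 7 were tested, 0 passed and 1 was higher without overlap. This stands beside 0.333% of all tested genes as deposited and 2.91% after rescaling. Their log2 fold changes had a median of 0.09 as deposited and 0.21 after rescaling. The 1 gene was Cebpb, a transcription factor shared with the stress response, with a log2 difference of 0.71 (SE 0.17, limma adjusted p = 0.271) and of 0.77 without K320E-skm 4. Stat3 itself averaged 8.45 ± 1.47 and 8.72 ± 1.86 FPKM, and Junb, an immediate-early gene, 9.55 ± 5.69 and 8.16 ± 2.35 FPKM, in K320E-skm and wild-type muscle.

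Copper and iron handling were set beside zinc, since metallothioneins bind copper and Slc39a14 carries iron. Of 9 copper genes, 8 were tested and 0 passed or lay apart, beside 9.92% of all tested genes without overlap. Their log2 fold changes had a median of 0.02, a range of −0.25 to 0.09 and a median of 0.16 after rescaling. Cox17, the copper chaperone of cytochrome oxidase, was at 67.4 to 73.4 FPKM in the K320E-skm and at 61.3 to 72.1 FPKM in the wild-type libraries. Sod1, the copper and zinc superoxide dismutase, averaged 90.0 ± 3.45 and 89.7 ± 12.5 FPKM, and Commd1, a copper-trafficking protein, 44.2 ± 1.51 and 46.4 ± 6.48 FPKM, in K320E-skm and wild-type muscle. Of 9 iron genes, all tested, 0 passed and 1 was lower without overlap, a share near the 9.59% of all tested genes. Their log2 fold changes had a median of −0.17 as deposited and −0.02 after rescaling. The 1 gene was Ireb2, an iron-sensing regulator of mRNA, with a log2 difference of −0.18 (SE 0.10, limma adjusted p = 0.415) and −0.07 after rescaling. Tfrc, the transferrin receptor, averaged 12.2 ± 5.96 and 14.8 ± 3.15 FPKM in K320E-skm and wild-type muscle. The ferritin heavy chain gene Fth1 averaged 225 ± 43.0 and 255 ± 51.4 FPKM, and the light chain gene Ftl1 90.8 ± 27.9 and 69.9 ± 20.3 FPKM, in K320E-skm and wild-type muscle (n = 4 each).

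The protein-coding genes whose log2(FPKM + 1) followed the mean of Mt1 and Mt2 most closely over the 8 libraries were Sars (Pearson's r = 0.975), Prkar1a (0.975), Ctsl (0.962), Psat1 (0.960) and Slc6a9 (0.960), out of 9597 compared. These values are a description, since all genes share the 8 libraries and their scaling and the closest of many were taken. Sars, cytosolic seryl-tRNA synthetase, was measured at 35.5, 39.0, 37.4 and 28.7 FPKM (K320E-skm 1 to 4), against 25.5, 29.2, 21.4 and 26.5 FPKM (wild-type 1 to 4). Psat1, an enzyme of serine synthesis, was measured at 2.77, 2.40, 3.44 and 0.648 FPKM (K320E-skm 1 to 4), against 0.870, 1.34, 0.188 and 0.231 FPKM (wild-type 1 to 4). In both genes K320E-skm 4 lay below wild-type 2, as in Mt1 and Mt2. Ctsl, a lysosomal protease raised in wasting muscle, averaged 48.5 ± 11.5 and 34.9 ± 6.14 FPKM, Slc6a9, a glycine transporter, 2.57 ± 0.682 and 1.44 ± 0.471 FPKM, and Prkar1a, a regulatory subunit of protein kinase A, 19.6 ± 1.77 and 17.1 ± 1.42 FPKM, in K320E-skm and wild-type muscle.

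For Slc39a14 the closest genes out of 9599 were Ctla2a (r = 0.927), Atoh8 (0.919), Wdr46 (0.917), Shroom4 (0.909) and Trim63 (0.900). Trim63, the muscle ubiquitin ligase MuRF1, was measured at 78.2, 195, 76.0 and 64.2 FPKM (K320E-skm 1 to 4), against 67.3, 49.7, 59.2 and 56.1 FPKM (wild-type 1 to 4). K320E-skm 2 held the highest value in Slc39a14 and in all 5 of these genes, so the likeness leans on that library. None of the 5 closest to Mt1 and Mt2 was among these.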

How the data were processed

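The authors deposited FPKM (fragments per kilobase of transcript, scaled to the mapped fragments of the library) for 48328 Ensembl genes and 8 libraries in 1 table. CASAVA, TopHat2 2.0.10, Cufflinks 2.1.1 and the build mm10 are named in the submitters' processing notes, and a stranded library kit is named per the labels' protocols. The annotation release, the strand setting and how shared reads were treated: not given in the sources used here. FPKM depend on the whole library, so a gene that takes up more of it lowers the rest, and values of genes that overlap or share sequence are uncertain.

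Groups came from the sample titles. GENCODE M21 (GRCm38) gave symbols and positions for 47864 of the IDs and none for 464. In all, 0 columns were left unmapped. The labels call the samples separate but do not describe their origin further, so the p-values reflect only how these samples spread, which may be technical. log2(FPKM + 1) was tested with limma 3.58.1 in R 4.3.3 (empirical Bayes with a trend, two-sided, Benjamini-Hochberg over 10521 genes, threshold 0.05) on genes with 1 FPKM or more in at least 4 libraries, with 6 residual degrees of freedom. The fit was tested on simulated data. Single genes were also compared with the exact two-sided permutation test of mean FPKM over 70 assignments, whose smallest p is 0.0286. No sex term was used, because 1 sex label is contradicted by the transcripts. With 2 male and 2 female labels per genotype, a term for the label leaves the fold change the same. By transcripts the genotypes are not balanced: Y-linked transcripts were held by K320E-skm 1, wild-type 1 and wild-type 3. A term for sex by transcripts was not tried, and it could change the fold changes. Promoters came from RefSeq (GRCm38.p6). Tables were handled with pandas 2.3.3 in Python 3.11.15.

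The 9 members and the gene lists were chosen with earlier results of these data known. The genes named are the 9 members, the listed genes within 100 kb of Mt1, the 5 genes closest in pattern to the metallothioneins and to Slc39a14, and, of each pathway list (not the marker lists), the members past the threshold, those that did not overlap between genotypes and the 3 with the highest mean. Cd68 and the comparison of Slc30a2 by sex label were added once values had been seen. Other settings tried were median-ratio rescaling, quantile normalization, a pseudocount of 0.1, a filter at 5 FPKM or none, the replicate number as a block, a sex term, robust empirical Bayes and leaving out each library.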

Additional observations from a re-analysis of the deposited data

Results flagged for a closer look

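Outlying values were sought in 96 groups of 4 libraries. These covered the members, their neighbours, the ratio of Mt2 to Mt1 and the other genes picked from lists or by pattern. By Dixon's criterion, 11 values stood far from the other 3 of their genotype. Chance alone meets this criterion in about 1 group in 20, but only for independent groups that were not picked. Wdr46 and Trim63 were picked because they follow Slc39a14, so their values in K320E-skm 2 are not separate findings. Mt1 in K320E-skm 4 was at 24.0 FPKM, with the other 3 at 75.9 to 83.4 FPKM. Slc39a14 in K320E-skm 2 was at 4.84 FPKM, with the others at 2.49 to 2.63 FPKM, and in the same library Trim63 was at 195 FPKM, Txnrd1 at 349 FPKM and Wdr46 at 2.82 FPKM. Slc30a2 in K320E-skm 1 was at 0.676 FPKM, with the others at 0.142 to 0.195 FPKM; that library alone of its genotype held transcripts of the Y chromosome. Sgk1 in K320E-skm 3 was at 52.4 FPKM. In wild-type 1, Slc30a4 was at 4.84 FPKM, Slc30a7 at 2.79 FPKM, Slc39a1 at 12.3 FPKM and Junb at 11.6 FPKM, each above the other 3. Wild-type 1 had the largest size factor of the median-ratio rescaling, 1.28, against 0.905 to 1.04 in the other libraries. The part of this scaling in these values was not tested.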

How the results depend on the processing

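The filters, the sex term by label, the replicate block and robust empirical Bayes leave the fold change of a gene as it is, so they could not test its direction. Under the other alternatives Mt1 and Mt2, chosen for their rise, stayed higher in K320E-skm muscle, which is given as a description. Their log2 fold changes were 1.21 to 1.90 and 1.59 to 2.25 when 1 library was left out. With the pseudocount of 0.1, median-ratio rescaling or quantile normalization they were 1.52 to 1.65 and 1.94 to 2.01. The log2 ratio of Mt2 to Mt1 differed by 0.37 to 0.47 when 1 library was left out. Slc39a14 stayed higher under the alternatives that could move it (the filter of 5 FPKM left it and Mt3 out). Mt3 also stayed higher, as a description only, since it came through the filter by the genotype where it is higher. No tested member passed the limma threshold under any alternative (adjusted p of 0.314 to 0.603 for Slc39a14 and 0.214 to 0.603 for Mt3). Near 0 the direction changed: Mtf1 was at 0.045 after median-ratio rescaling and 0.051 after quantile normalization, and Slc30a4 at 0.027 and 0.019. With 1 library left out, Slc30a1 ranged over −0.0042 (without K320E-skm 1) to 0.13 and Slc39a10 over −0.028 (without wild-type 3) to 0.17. Over all genes limma called 2, which became 1 with no filter, 1 with a filter of 5 FPKM, 1 with robust empirical Bayes, and 1 to 4 with 1 library left out (4 without K320E-skm 4). The share of genes without overlap between the genotypes was 9.92%, and became 5.64% with no filter, 5.89% after median-ratio rescaling, 6.03% after quantile normalization and 11.3% to 17.4% with 1 library left out; the cause was not tested. With the replicate number as a block, limma called 2 genes and no tested member. The numbers do not pair the samples: deviations of same-numbered libraries correlated at 0.156, 0.0233, 0.0442 and 0.0395. Shortened to its first 5 letters, the metal response element core was found in 55.2% of promoters. The fragments behind Mt3 and Slc30a2 limit what can be said of them.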
